A study of Mus musculus with 2 samples.

Results

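The heat shock chaperones described here are 10 genes out of the 32285 in the RNA matrix, taken by symbol: Dnajb1, Hspa1a, Hspa1b, Hsph1, Hspb1, Hsp90aa1, Hsp90ab1, Hspa8, Hspd1 and Hspe1. All 10 were found. They were measured in single B16F10 cells, a transplantable mouse melanoma line, recovered from the lungs of wild-type mice (WT lung), the lungs of perforin-deficient mice (Prf1-/- lung) and the knees of perforin-deficient mice (Prf1-/- bone, or bone). Perforin, the product of Prf1, is the pore-forming protein of killer lymphocytes, and the deletion is that of the mice the cells were taken from. Levels were taken over barcodes with at least 1000 detected genes and at most 15% of unique molecular identifiers (UMIs) from mitochondrial genes. The genes were proposed with earlier results of these same libraries known, in particular the Dnajb1 and Hspa1b levels, so the levels below are descriptions and no test was made.

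Heat shock proteins keep other proteins folded. Hsp70 proteins bind unfolded stretches in cycles of ATP hydrolysis that J-domain proteins such as the product of Dnajb1 start and exchange factors such as the product of Hsph1 end, Hsp90 proteins mature signalling clients, and the Hspd1 and Hspe1 products form the folding chamber of mitochondria. Under heat, oxidation or other protein-damaging stress, the transcription factor HSF1 binds inverted repeats of GAA in promoters and raises the inducible members, Hspa1a and Hspa1b above all, while Hspa8 and Hsp90ab1 are made in most cells at all times. Enzymatic digestion and sorting of tissue are known to raise such genes too.

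The 3 sources came as 1 pool. At 37 °C, resected lung tumours had spent 20 min in collagenase and knee fragments 30 min, so bone and the longer digestion cannot be told apart, whereas both lung groups had the same digestion. GFP-positive cells without CD45 and without DAPI staining were sorted, marked with 1 hashtag antibody per source and sequenced as 1 pooled 3′ single-cell library. Every group is therefore 1 sample with no replicate. Strain, age, time in the mouse and number of mice are not given in the sources used here, nor is whether bone and lung cells came from the same Prf1-/- mice. A barcode was placed in a source when its largest hashtag count was at least 2 times the second. This left 1227 barcodes in WT lung (3865546 UMIs, median 2909), 1520 in Prf1-/- lung (4726709 UMIs, median 2826.5) and 385 in Prf1-/- bone (1299480 UMIs, median 3107). A further 6270 barcodes had no hashtag entry and 242 had a ratio under 2. Levels are UMIs of a gene per 1000000 UMIs of the group (CPM), and 3 values in a row without names stand for WT lung, for Prf1-/- lung and for bone, in that order. The 8 melanoma markers summed to 13937, 14170 and 10630 CPM, and every passing barcode of the 3 groups held at least 1 of their UMIs. All 8 markers of T and NK cells were at 0 in the 3 groups. The 10 epithelial markers summed to 204, 13.8 and 19.2 CPM, with 40.8% of the first in 1 barcode, and the 6 neutrophil markers to 0.259, 0.635 and 0. With no other cell type in number, free RNA gave no separate background here, and shares of barcodes with a UMI include any such RNA.

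Most RNA barcodes without a hashtag entry were repeats of other barcodes. Of the 7740 barcodes with suffix 2, 7734 (99.9%) had letters that also occurred with suffix 1, and no barcode of suffix 2 was in the hashtag matrix. Both barcodes passed the filter in 3636 pairs. Over all 7734 pairs, passing or not, the suffix 2 barcode held a median of 0.699 times the UMIs of its partner. The totals had a Spearman correlation of 0.995 across the pairs. The 2 are called the first and second reading of a cell here. Of the 6270 unlisted barcodes, 2634 were first readings and 3636 second readings, and 2019 of the second readings belonged to cells already counted in a hashtag group (783 WT lung, 953 Prf1-/- lung, 283 Prf1-/- bone). The hashtag groups hold first readings only, and the second readings give the same cells counted again, not new animals or cells.

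Promoter letters are shown for the members that stood high together in 1 bone barcode, and for Dnajb1, the member with the largest difference between the lung groups. RefSeq windows (GRCm38.p6, 250 bases before to 50 after each start) matched 7 of the 10 members, and none was used for Hsp90aa1, Hsp90ab1 or Hspa8. GAANNTTC and TTCNNGAA, the inverted pairs of the heat shock element, were searched. Each reads the same on both strands, and matches may overlap. At least 1 of them occurred in 15.1% of all 32851 windows and in windows of 6 of the 7 members. Stretches before the start are printed 5′ to 3′ on the gene's strand, matches in capitals, at chr17:34972247-34972376 (minus), chr17:34959329-34959458 (minus), chr5:135887779-135887848 (plus), chr5:149636352-149636381 (minus), chr1:55088054-55088083 (plus) and chr8:83608045-83608174 (plus).
Hspa1a: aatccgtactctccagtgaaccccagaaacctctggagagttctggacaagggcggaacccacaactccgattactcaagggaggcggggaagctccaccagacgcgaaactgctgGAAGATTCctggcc
Hspa1b: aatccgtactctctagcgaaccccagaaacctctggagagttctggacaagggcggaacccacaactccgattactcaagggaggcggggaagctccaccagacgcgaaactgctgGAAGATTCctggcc
Hspb1: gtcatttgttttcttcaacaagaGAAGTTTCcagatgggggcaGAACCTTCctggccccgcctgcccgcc
Hsph1: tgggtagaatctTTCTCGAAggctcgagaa
Hspe1 and Hspd1: gtccgTTCTAGAACCTTCCGGAAggccccg
Dnajb1: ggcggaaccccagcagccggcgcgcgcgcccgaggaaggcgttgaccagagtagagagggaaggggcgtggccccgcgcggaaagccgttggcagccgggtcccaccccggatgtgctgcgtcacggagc

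The Hspa1a and Hspa1b windows differed at 4 of 300 bases (98.7% identical) and shared a match 104 bases before the start. These windows say nothing of the transcript ends that were counted. How reads matching both genes were treated in the counting was not checked. The counts of both genes may be too low, and their separate counts are uncertain. Hspb1 had matches 117 and 97 bases before its start. Hsph1 had 1 before the start shown, at 33 bases. Hspe1 (chr1:55088148-55091317) and Hspd1 (chr1:55077833-55088243) lie head to head with overlapping ends. Their shared stretch held 3 overlapping matches, 89, 84 and 79 bases before the Hspe1 start. Neither Dnajb1 window held a match, which says only that these letters are not in those windows.

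Dnajb1 (chr8:83608175-83612653), the J-domain partner of the inducible Hsp70s, was the member whose level differed most between the lung groups outside the 2 sparse Hsp70 genes. It stood at 76.1 CPM in WT lung (95% Poisson interval 67.6 to 85.3, 294 UMIs), 146 in Prf1-/- lung (135 to 157, 688 UMIs) and 87.7 in bone (72.4 to 105, 114 UMIs). Prf1-/- lung was high and the other 2 groups lay close to each other. The ratio of Prf1-/- lung to WT lung was 1.91 (1.67 to 2.20), and that of Prf1-/- bone to Prf1-/- lung was 0.603 (0.490 to 0.736). Prf1-/- bone to WT lung gave 1.15 (0.921 to 1.44), an interval that holds 1. These comparisons share groups, so the high level of Prf1-/- lung enters both of the first 2. All intervals here are of counting error in summed UMIs. None holds the variation from cell to cell beyond counting, or that from animal to animal.

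The Dnajb1 difference was spread over many cells. A Dnajb1 UMI was found in 20.4% of WT lung barcodes, 30.3% of Prf1-/- lung barcodes and 23.1% of bone barcodes. With every barcode thinned to 1500 UMIs, which left out 1 Prf1-/- lung barcode, the shares were 10.4% (Clopper-Pearson interval 8.70 to 12.2), 18.2% (16.3 to 20.2) and 13.0%. The barcode with the most Dnajb1 UMIs held 1.36%, 1.16% and 6.14% of them. Without it the ratio of the lung groups was 1.92. Barcodes with at least 3 Dnajb1 UMIs numbered 7 of 1227, 50 of 1520 and 5 of 385. At equal depth 11 of 1519 Prf1-/- lung barcodes (0.724%) had 3 or more, against 0.150% for a Poisson distribution of the same mean. In WT lung it was only 1 of 1227 (0.0815% against 0.0213%), and in bone 3 of 385 (0.779% against 0.0562%).

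The gap between the lung groups was present at every depth and at every strength of the hashtag. With the barcodes of a group cut into 5 equal parts by total UMIs, the Prf1-/- lung level ran from 142 to 151 CPM and the WT lung level from 58.4 to 87.8. In 5 parts by hashtag count the ranges were 132 to 159 and 71.2 to 78.1 CPM. Every part of Prf1-/- lung thus lay above every part of WT lung. The bone parts, of 77 barcodes each, ran from 65.3 to 127 CPM over the hashtag count. The second readings of the same cells gave 1.67 (1.39 to 2.01) for the lung ratio and 0.608 (0.461 to 0.791) for Prf1-/- bone to Prf1-/- lung. Thinning moved the latter to 0.709 (0.529 to 0.935), under the 1.5-fold line used for a call.

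**Figure D1:**
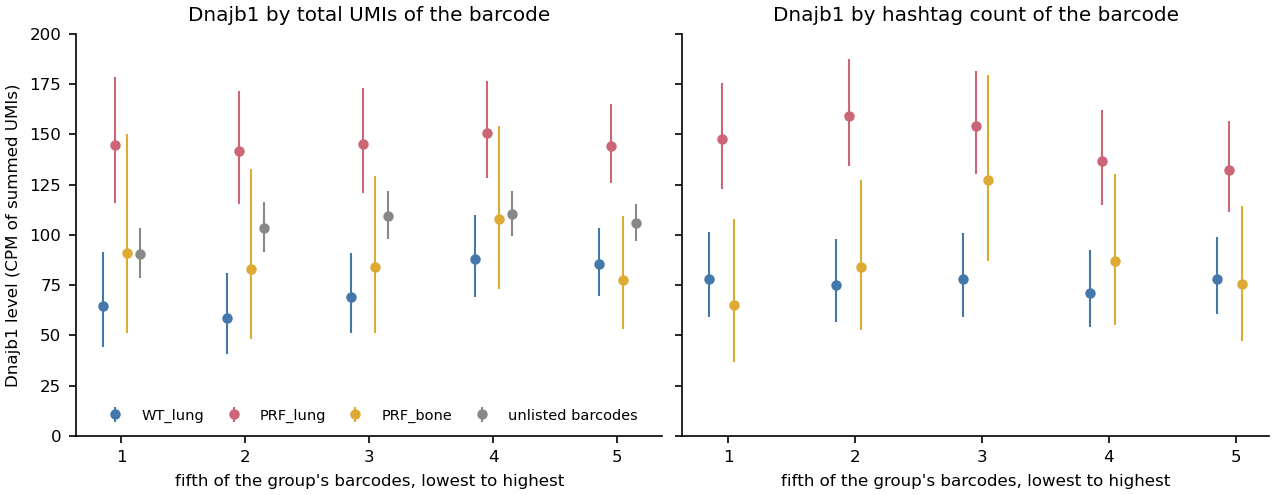
Dnajb1 level (CPM of summed UMIs, points, with 95% Poisson intervals as bars) in 5 equal parts of each group's barcodes, ordered by total UMIs (left) or by hashtag count (right, without the unlisted barcodes, which have none). Prf1-/- lung (PRF_lung) stays between 132 and 159 CPM and WT lung (WT_lung) between 58.4 and 87.8.

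Hspa1a (chr17:34969359-34972156) and Hspa1b (chr17:34956429-34959238), the stress-inducible Hsp70 genes, had few counted UMIs. Hspa1a had 0 UMIs in both lung groups, under a floor of 3 UMIs that equals 0.776 CPM for WT lung and 0.635 CPM for Prf1-/- lung, and 6 UMIs in Prf1-/- bone that all lay in 1 barcode. Hspa1b had 8 UMIs (2.07 CPM), 18 UMIs (3.81 CPM) and 38 UMIs (29.2 CPM). The ratio of the lung groups, 1.84 (0.761 to 4.89), rests on few UMIs, and in the second readings Hspa1b had 0 UMIs in WT lung, 15 in Prf1-/- lung (6.16 CPM) and 1 in bone. Of the 38, 31 (81.6%) lay in the same bone barcode, and without it the bone level was 5.40 CPM. The Hspa1b ratio of Prf1-/- bone to Prf1-/- lung was 7.68 (4.28 to 14.3) with it and 1.59 (0.554 to 4.09) without the top barcode of each group. Against WT lung the ratio was 14.1 (6.49 to 35.1) with it and 2.98 (0.891 to 9.95) without. Hspa1b passed the minimum mean of 10 CPM through this barcode alone.

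That barcode held every member at a raised level. It held 3038 UMIs and 1298 genes, of which the 10 members made up 11.2% of UMIs, against a median of 1.43% over the Prf1-/- bone barcodes. Hspb1 stood at 102 UMIs, 103 times the level of the other 384 bone barcodes (interval 81.9 to 128), and Hsph1 at 10 UMIs, 46.4 times (21.5 to 89.2). Hspe1 stood at 8.53 times (6.13 to 11.6), Hsp90aa1 at 7.87 times (5.96 to 10.2), Hspa8 at 4.16 times (2.69 to 6.16), Hspd1 at 3.46 times (1.89 to 5.82) and Hsp90ab1 at 2.33 times (1.72 to 3.10). Dnajb1 had 3 UMIs, 11.5 times (2.34 to 34.6). The barcode was singled out after its values were seen. It held 20 melanoma marker UMIs and 2 UMIs of all other marker lists, and its hashtag counts were 374 for bone and 101 for the next, a ratio of 3.70, so a hashtag factor of 5 removes it from the bone group.

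Its second reading, which was not used to find it, repeated the pattern. That reading held 2133 UMIs and 990 genes and so missed the gene filter. It had 18 Hspa1b and 3 Hspa1a UMIs, 86 Hspb1 UMIs at 123 times the other bone barcodes (96.6 to 156) and 8 Hsph1 UMIs at 52.9 times (22.2 to 109). Dnajb1 was at 0 UMIs in it, where a count of 0 allows up to 3. The 2 readings share the cell and possibly the molecules, so they speak for this cell only.

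**Figure D2:**
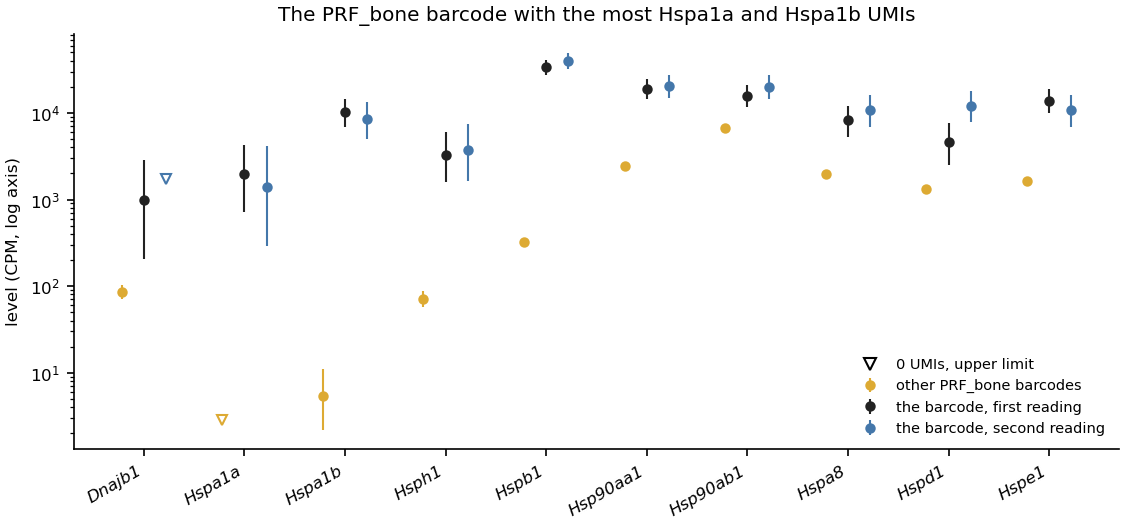
Level of each member (CPM, log axis, with 95% Poisson intervals) in the Prf1-/- bone barcode with the most Hspa1a and Hspa1b UMIs, in its first and second reading, and in the other 384 Prf1-/- bone barcodes; open triangles mark the upper limit for 0 UMIs. Hspb1 stands at 103 and 123 times the other barcodes in the 2 readings, and Hsp90ab1 at 2.33 and 2.98 times.

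Barcodes with several Hsp70 UMIs were few. Of 9644 passing barcodes 6 held at least 3 UMIs of Hspa1a and Hspa1b together: 2 of 385 in Prf1-/- bone (0.519%, interval 0.0630 to 1.86), 4 of 6270 unlisted, of which 3 were first readings, and none in either lung group. The Clopper-Pearson upper limit was 0.300% of the 1227 WT lung barcodes and 0.242% of the 1520 Prf1-/- lung barcodes, and a floor of 3 barcodes stands at 0.244% and 0.197%. An unlisted barcode of 2411 UMIs had 5 Hspa1b, 12 Dnajb1, 11 Hsph1 and 70 Hspb1 UMIs, with the members at 9.42% of its UMIs. Its second reading had 7, 4, 4 and 51. The members made up 6.85% of UMIs in the unlisted second reading, which had 3 Hspa1b, 48 Hspb1 and 7 Hsph1 UMIs. Its first reading, deeper at 3453 UMIs, had 72 Hspb1 and 5 Dnajb1 UMIs but none of Hspa1a or Hspa1b, so the Hsp70 count alone misses that reading. In the other 3 barcodes the members made up 2.48% to 3.38% of UMIs. Among these, the second bone barcode had 3 Hspa1b UMIs and 13 Hspb1 UMIs, and none of either Hsp70 gene in its second reading. At least 1 UMI of the pair was found in 0.652%, 1.12% and 1.56% of barcodes.

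**Figure D3:**
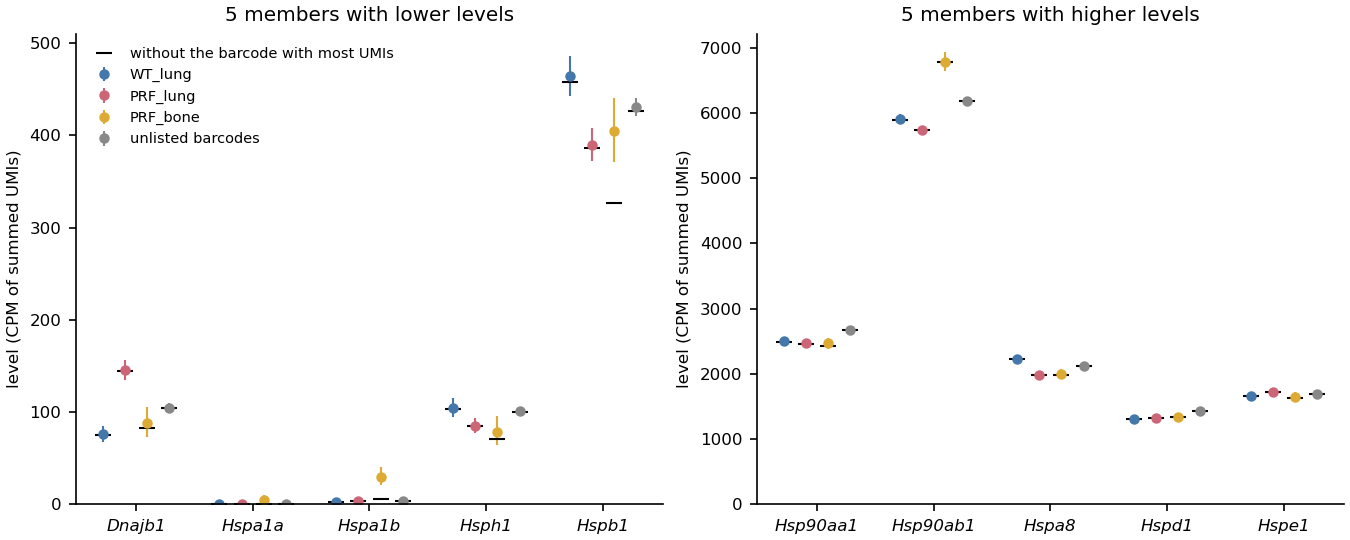
Level of each member (CPM of summed UMIs, points, with 95% Poisson intervals) by group (WT_lung, PRF_lung, PRF_bone and the unlisted barcodes); black dashes give the level without the barcode with the most UMIs of that gene. Dnajb1 stands apart in Prf1-/- lung (146 CPM), and the dashes fall away from the points for Hspa1b and Hspb1 in Prf1-/- bone.

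Hsph1 (chr5:149616843-149636498), the Hsp110 exchange factor of Hsp70, was lowest in bone. It stood at 105 CPM in WT lung (94.6 to 115, 404 UMIs), 85.05 in Prf1-/- lung (76.9 to 93.8, 402 UMIs) and 78.5 in bone (102 UMIs). WT lung was the high group, and the intervals of lung and bone from Prf1-/- mice overlapped. The ratio of Prf1-/- lung to WT lung was 0.814 (0.707 to 0.937) and that of Prf1-/- bone to WT lung 0.751 (0.598 to 0.935). Without the top barcode of each group the latter was 0.685 (0.540 to 0.861). In barcodes with at least 2000 genes the ratio of Prf1-/- lung to WT lung was 1.02 (0.744 to 1.41), so its direction turned there.

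Hspb1 (chr5:135887919-135889563), a small heat shock protein gene whose product binds unfolding proteins without ATP, stood at 464 CPM in WT lung (443 to 486), 390.1 in Prf1-/- lung (373 to 408) and 405 in bone (371 to 441). In bone 19.4% of its UMIs came from the barcode described above, and without it the level was 327 CPM, the lowest of the 3 groups. The ratio of Prf1-/- bone to Prf1-/- lung was 1.04 with that barcode, its interval holding 1, and 0.846 (0.759 to 0.941) without the top barcodes, so 1 of 385 barcodes turned its direction. Prf1-/- lung to WT lung gave 0.841 (0.787 to 0.898). A UMI was found in 54.4%, 46.2% and 46.2% of barcodes.

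The cytosolic Hsp90 genes and the constitutive Hsp70 varied little. Hsp90aa1 (chr12:110691036-110696395), the more inducible Hsp90, stood at 2497, 2469 and 2466 CPM, and all 3 intervals overlapped. Hsp90ab1 (chr17:45567778-45573261), the constitutive form and the member with the most UMIs, stood at 5903 (5827 to 5980), 5741 (5672 to 5809) and 6792 (6651 to 6935) CPM. Bone was the high group, at 1.18 times Prf1-/- lung (1.15 to 1.21) and 1.15 times WT lung (1.12 to 1.18). Without the top barcodes the ratios were again 1.18 and 1.15. Hspa8 (chr9:40801276-40805202), the constitutive Hsp70, stood at 2226 (2179 to 2274), 1980 (1940 to 2020) and 1992 (1916 to 2070) CPM. WT lung was the high group, and the ratio of Prf1-/- lung to it was 0.889 (0.864 to 0.916).

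The mitochondrial chaperonin genes varied as little. Hspd1, the Hsp60 chamber subunit, stood at 1314, 1319 and 1341 CPM, with ratios to WT lung of 1.00 for Prf1-/- lung and 1.02 for bone. Hspe1, the Hsp10 lid subunit, stood at 1663, 1728 and 1650 CPM, with ratios of 1.04 and 0.992. Counts of 3′ ends were not divided by transcript length, and levels of different genes are compared only loosely. The 10 members together made up 1.42%, 1.39% and 1.48% of UMIs.

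**Figure D4:**
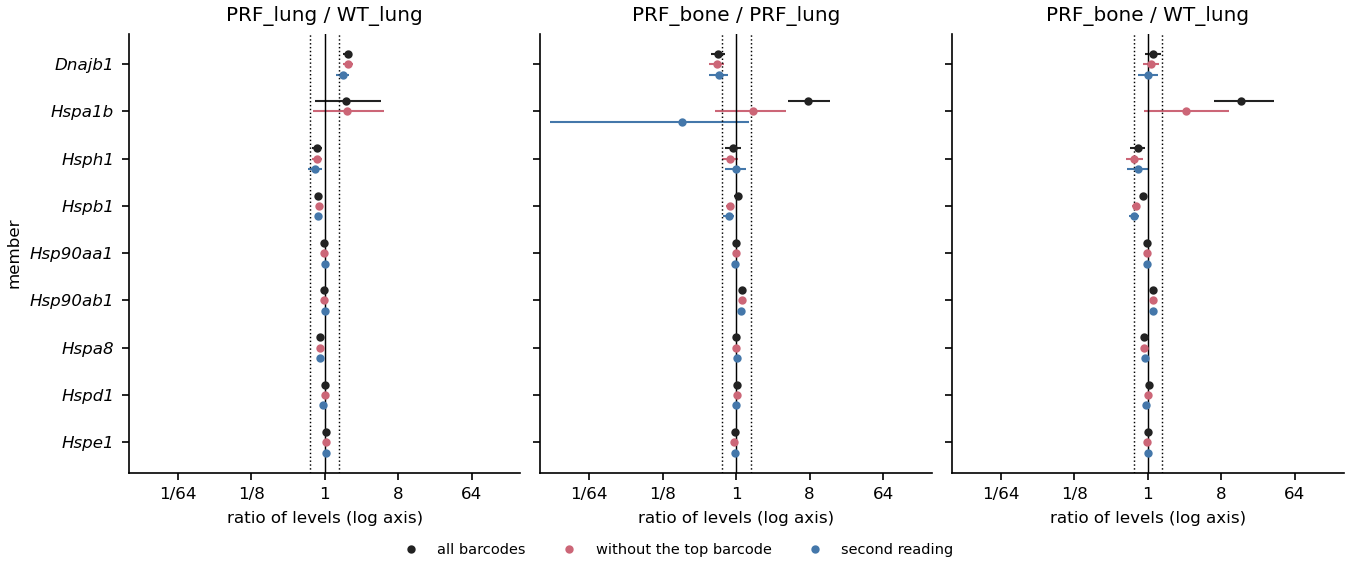
Ratio of each member's level between groups (points, log axis) with 95% exact binomial intervals, over all barcodes, without the barcode with the most UMIs in each group and in the second readings of the same cells; dotted lines mark 1.5-fold, and Hspa1a is left out because both lung groups were at 0. The Dnajb1 ratio of Prf1-/- lung to WT lung is 1.91 over all barcodes and 1.92 without the top ones, while the Hspa1b bone ratios move from 7.68 to 1.59 and from 14.1 to 2.98.

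Counted against the whole transcriptome, a gene was called when its ratio reached 1.5-fold, its interval left out 1 and the mean of both groups reached 10 CPM. In Prf1-/- lung against WT lung 1 of the 8 members that passed the minimum was called higher, Dnajb1, and 0 lower. The shares of all 7748 genes tested that were called were 0.684% higher and 1.07% lower. In Prf1-/- bone against Prf1-/- lung 1 of 9 was called higher, Hspa1b, and 1 lower, Dnajb1, with 2.64% and 4.85% of 7695 genes called. In Prf1-/- bone against WT lung 1 of 9 was called higher, again Hspa1b, and 0 lower, with 2.28% and 5.29% of 7707 genes called. Without its top barcode Hspa1b was not called in either bone comparison. The members were chosen on these contrasts, so nothing is read from the counts. The members' median log2 ratios were -0.03, 0.01 and -0.01 in the 3 comparisons, beside 0.00, -0.03 and -0.03 over all genes tested.

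Few other chaperone genes were called between the lung groups, where 0.684% of all 7748 genes tested were called higher and 1.07% lower. At such shares, counts near 0 are not read as a result about these lists. Of the 18 listed heat shock factors and other HSF1 targets, 15 passed the minimum in Prf1-/- lung against WT lung, and 0 were called in either direction, with ratios between 0.676 and 1.25 and a median log2 ratio of -0.08. Dnaja1, another cytosolic J-domain gene, stood at 1073 CPM in Prf1-/- lung against 1164 in WT lung, and the polyubiquitin gene Ubb at 1706 against 1680. Bag3, an exchange factor that HSF1 induces, stood at 30.7 against 24.6 CPM. Of 15 J-domain genes 13 passed the minimum and 0 were called, with ratios between 0.909 and 1.13, and of 15 Hsp70 relatives and exchange factors 13 passed and 0 were called. Of 14 Hsp90 co-chaperones 1 was called lower, Unc45a, a myosin chaperone gene, at 14.4 against 23.3 CPM. None of 14 chaperonin and prefoldin genes, 9 mitochondrial proteostasis genes, 15 endoplasmic reticulum chaperones and 3 measured small heat shock genes was called, and neither was any of 10 measured genes of the integrated stress response.

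In Prf1-/- bone against Prf1-/- lung 1 of 14 measured HSF1 targets was called lower, Bag3, at 19.2 against 30.7 CPM (ratio 0.627, 0.393 to 0.963), and 0 higher. Of 13 measured Hsp70 relatives and exchange factors 2 were called lower, Bag3 and Hspa13, the latter at 22.3 against 41.9 CPM. None of the J-domain genes, the Hsp90 co-chaperones or the chaperonin and prefoldin genes was called. Against WT lung, Cryab, the alpha-B crystallin small heat shock gene, was called lower in bone at 528 against 821 CPM (ratio 0.643, 0.592 to 0.699), as was Hspa4l, an Hsp110 relative, at 27.7 against 41.9. Hspa13, Bag4 and Unc45a were called lower as well. Against WT lung the genes called lower were 2 of 14 measured HSF1 targets and 3 of 13 Hsp70 relatives and exchange factors. They were also 1 of 14 Hsp90 co-chaperones and 1 of 3 measured small heat shock genes, and some lists share genes. Over all genes tested 5.29% were called lower and 2.28% higher against WT lung. Against Prf1-/- lung the shares were 4.85% and 2.64%, and nothing is read from the small counts of either comparison. The median log2 ratio of the HSF1 targets was 0.10 against Prf1-/- lung and 0.03 against WT lung.

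Immediate-early genes are known to rise with tissue handling, as heat shock genes do. Of 18 genes of that list 0 were called between the lung groups, where 0.684% of all genes tested were called higher and 1.07% lower. Their median log2 ratio was 0.22, with ratios between 0.878 and 1.26. In Prf1-/- bone against Prf1-/- lung 9 were called lower and 1 higher, with a median of -0.57, where 4.85% and 2.64% of all genes tested were called. Egr1, a zinc finger transcription factor, stood at 22.3 CPM in Prf1-/- bone against 86.1 in Prf1-/- lung, whereas Fosb, an AP-1 subunit, stood at 200.1 against 34.3. Among the genes of this list with the most UMIs or the largest called ratios, the orders over the 3 groups differed. Atf3 (44.2, 53.5 and 21.5 CPM), Zfp36 (14.5, 17.8 and 7.70) and Fos (632, 643 and 606) were highest in Prf1-/- lung, as Dnajb1 was. Fosb, Jun and Jund were highest in bone, and Egr1 in WT lung. Whether handling had a part in the Dnajb1 levels was not tested.

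Correlations of Dnajb1 with other genes were taken over barcodes. Over all 9644 passing barcodes the genes most like Dnajb1, among the 3853 genes with at least 1000 UMIs, included Fos, Jun, Hspb1, Hspa8, Dnaja1, Hsp90aa1, Egr1, Top2a and Prc1. Pearson correlations of log counts per 10000 ran from 0.111 for Fos to 0.057 for Prc1. These barcodes include both readings of many cells, and over the 6008 first readings alone the values were 0.123 for Jun and 0.118 for Fos. For the immediate-early genes among them, which were picked by this ranking and do not stand for their list, the values in the 1520 Prf1-/- lung barcodes were 0.210 for Jun, 0.189 for Fos and 0.148 for Egr1. In the 1227 WT lung barcodes the values for these 3 were 0.059, 0.062 and 0.030, and in the 385 bone barcodes 0.045, 0.011 and 0.018. The values are small in sparse counts, the barcodes share 1 library and differ in depth, and the difference between groups was not tested. Between the 2 readings of a cell the raw Dnajb1 counts had a correlation of 0.340 over 3636 pairs. The median was 0.0632 over 3543 genes with a mean of 0.1 to 0.5 UMIs.

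Levels were also taken by the number of Dnajb1 UMIs. In Prf1-/- lung the 50 barcodes with at least 3 had Jun at 1056 CPM (911 to 1217), against 514 (489 to 540) in the 1059 barcodes with none. Fos, the partner of Jun in AP-1, stood at 989 against 563 CPM. Among the members, Hspb1 stood at 674 against 352 CPM, Hsp90aa1 at 3184 against 2349 and Hspa8 at 2310 against 1861. Hspd1 stood at 1304 against 1270 CPM with overlapping intervals. Median depth was 3394 and 2726 UMIs in these 2 sets, and its part was not tested. In WT lung only 7 barcodes had at least 3 Dnajb1 UMIs. There Fos stood at 1118 CPM (774 to 1562) against 617 in the barcodes with none, Jun at 395 (204 to 689) against 464, and Hspb1 at 723 (453 to 1095) against 440.1.

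Hsp90aa1, Hspd1 and Hsph1 were higher in barcodes with mitosis transcripts. Barcodes with at least 1 UMI of 10 mitosis genes had 1.48 times the Hsp90aa1 level of barcodes with none in WT lung (1.42 to 1.55), 1.42 times in Prf1-/- lung (1.36 to 1.48) and 1.503 times in bone (1.37 to 1.66). Hspd1 stood at 1.44, 1.38 and 1.30 times, and Hsph1 at 1.58, 1.60 and 1.75 times, the last with an interval of 0.988 to 3.33. Of the 88 Hsph1 UMIs in bone barcodes with a mitosis UMI, 10 lay in the barcode with the most Hspa1a and Hspa1b UMIs. That barcode raises the Hsph1 ratio of bone, and the ratio without it was not taken. Hspe1 stood at 1.18, 1.18 and 1.21 times. Hspb1 was lower, at 0.821 (0.746 to 0.904) and 0.662 (0.603 to 0.727) times in the lung groups. Its bone ratio of 0.911 (0.742 to 1.12) had an interval holding 1. Of the 403 Hspb1 UMIs in bone barcodes with a mitosis UMI, 102 lay in the barcode with the most Hspa1a and Hspa1b UMIs. The bone ratio without that barcode was not taken, so no contrast of bone with the lung groups is read from it. Barcodes with a mitosis UMI were deeper, with medians of 3226 against 2511 UMIs in WT lung. Within 5 parts by depth the Hsp90aa1 ratio was above 1 in 5 of 5 parts of each group, between 1.20 and 1.54. The Hspd1 and Hsph1 ratios were above 1 in 5 of 5 parts of each lung group, but in bone in 4 of 5 (lowest 0.976) and 3 of 5 (lowest 0.881). The Hspb1 ratio was above 1 in 1 of 5 parts of each lung group and 2 of 5 in bone. Dnajb1 stood at 142 CPM with a mitosis UMI and 154 without in Prf1-/- lung, and at 81.9 and 64.6 CPM in WT lung. The gap between the lung groups was thus present in both kinds of barcode.

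The genes most like the other members were looked up after the values were known. Hsp90aa1 was the gene most like Hspd1 (r = 0.269 over 9644 barcodes), followed by Ncl, a nucleolar protein gene (r = 0.239). Hspd1 and Hspe1, which share the promoter stretch printed above, had r = 0.236. The gene most like Hspb1 was Lgals7, which encodes galectin-7 (r = 0.346), followed by Tmsb4x and Rhox5. In WT lung, barcodes with a Lgals7 UMI had 2.31 times the Hspb1 level of barcodes without (2.07 to 2.59). The ratio was 2.90 in Prf1-/- lung (2.61 to 3.22) and 2.08 in Prf1-/- bone (1.69 to 2.57). It was above 1 in 5 of 5 depth parts of each group. Of the 408 Hspb1 UMIs in bone barcodes with a Lgals7 UMI, 102 lay in the barcode with the most Hspa1a and Hspa1b UMIs. That barcode raises the bone ratio, and the ratio without it was not taken. Hsp90aa1 stood at 0.934, 0.938 and 1.05 times in the same split. In raw UMI counts, unlike the log counts used above, Hspb1 was also the member most alike between the 2 readings of a cell. It had r = 0.786, against 0.749 for Hsp90ab1 and 0.259 for Hsph1. Such values rise with the count of a gene. Their median was 0.0632 over genes with a mean of 0.1 to 0.5 UMIs and 0.466 over genes with 2 to 30.

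**Figure D5:**
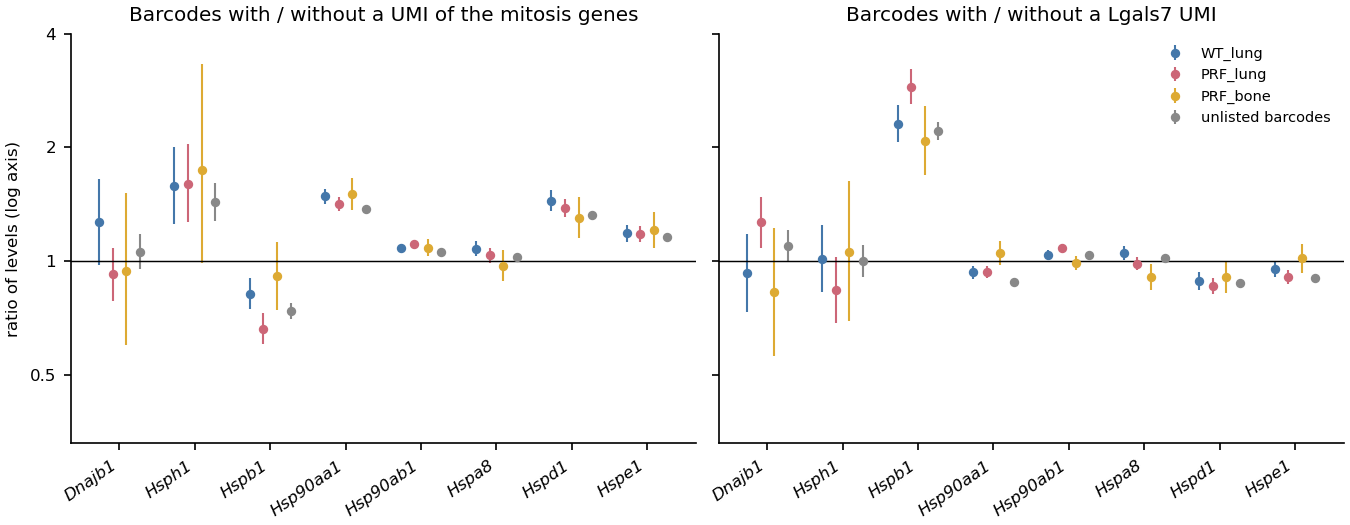
Ratio of each member's level (log axis, with 95% exact binomial intervals) between barcodes with and without a UMI of the 10 mitosis genes (left) and with and without a Lgals7 UMI (right), in each group; the 2 Hsp70 genes are left out for low counts. Hsp90aa1, Hspd1 and Hsph1 lie above 1 on the left in every group, and Hspb1 lies between 2.08 and 2.90 on the right in the 3 hashtag groups. The Prf1-/- bone points include the barcode with 102 Hspb1 UMIs.

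Barcodes without a hashtag entry had levels close to those with one. Dnajb1 stood at 105 CPM over all 6270 (99.98 to 110), and at 99.95 over the 2634 first readings alone, against 111 over the 3132 barcodes of the hashtag groups. The 2 sets share cells, since 2019 of the unlisted barcodes are second readings of cells in the hashtag groups. None of the 8 members that passed the minimum was called between these 2 sets, where 0.0905% of 7738 genes were called higher in the unlisted barcodes and 0.207% lower. Hsp90aa1 stood at 1.08 times the level of the hashtag groups (1.06 to 1.09) and Hspd1 at 1.08 times (1.06 to 1.10). With the 2634 first readings alone, which share no barcode with the hashtag groups, 0 members were called in either direction. The ratios were then 1.08 (1.06 to 1.10) for Hsp90aa1, 1.06 (1.03 to 1.09) for Hspd1, 1.11 (1.06 to 1.16) for Hspb1 and 0.902 (0.821 to 0.991) for Dnajb1. Hspb1 stood at 469 CPM in the unlisted first readings and 431 with the second readings added. The hashtags give no source for the 2634 unlisted first readings.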

How the data were processed

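The authors deposited whole-number UMI counts: an RNA matrix of barcodes and genes and a smaller matrix of the 3 hashtags. The submitters' processing notes name the mm10 build, Seurat 4.3.0 and Cell Ranger 6.1.2, whereas version 6.0.0 of the latter stands in the matrix per the file headers. The genes, lists and comparisons were chosen with earlier results of these data known, and nothing here is independent of them. The rule for named genes takes all 10 members, from each other list up to 3 members with the most UMIs and up to 4 called ones, and the 10 genes most correlated with Dnajb1. Some genes that this rule names are not reported here. Counts were summed over the barcodes of a group and divided by the total (CPM). Levels have exact Poisson, shares Clopper-Pearson and ratios exact conditional binomial intervals at 95% (Python 3.11.15, numpy 2.4.6, scipy 1.17.1, pandas 2.3.3). These cover counting error only, since each group is 1 sample, and no p-value was computed. The floor for 0 is 3 UMIs. No doublet caller was run: barcodes with a hashtag ratio under 2 were left out, and doublets within a hashtag are not seen. Ratios and calls were tested on counts simulated from the Poisson distribution that the intervals assume. That checks the calculation only, because counts of real barcodes can vary more than Poisson counts. There were 15 alternatives fixed with the design and 2 added after seeing the data, both about the second readings.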

Additional observations from a re-analysis of the deposited data

How the results depend on the processing

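No paired analysis was possible because each group is 1 sample of 1 pooled library, and for the same reason no replicate could be left out. Of 610 member ratios under alternatives, 545 stayed within the counting interval of the reported ratio, 60 moved outside it and 5, all Hspa1b, crossed 1 from a ratio that had been called. Ratios not called that crossed 1 include Hspb1 of bone to Prf1-/- lung (0.846 without the top barcodes), Hsph1 of Prf1-/- lung to WT lung (1.02 at 2000 genes) and Dnajb1 of bone to WT lung (0.943 at 2000 genes). The 5 called ones were Prf1-/- bone to Prf1-/- lung at 0.305 without the top 5 barcodes, 0.741 with a hashtag factor of 5 and 0.218 in the second readings, and Prf1-/- bone to WT lung at 0.998 without the top 5 and 0.763 with a factor of 5. Each of these settings leaves out the bone barcode with 37 Hsp70 UMIs. The Dnajb1 ratio of Prf1-/- lung to WT lung ranged from 1.501 (at least 2000 genes) to 2.38 (barcodes without mitosis UMIs), and that of Prf1-/- bone to Prf1-/- lung from 0.509 to 0.709. At 2-fold 0 members were called higher in the lung comparison. In each bone comparison the 1 member called higher became 0 without the top barcode, without the top 5, with a hashtag factor of 5, at 2000 genes, without mitosis UMIs and in the second readings, and became 2 with no CPM minimum, which adds Hspa1a. The 1 member lower in Prf1-/- bone against Prf1-/- lung became 0 at 2-fold and after thinning. Against WT lung the 0 lower in bone became 2 without the top 5 barcodes (Hsph1 and Hspb1), 1 with a factor of 5 (Hsph1) and 1 at 2000 genes (Hspb1). For the unlisted barcodes the 0 lower became 1 with no minimum (Hspa1b). Median of ratios scaling shifted log2 ratios by at most 0.01. Counts of 0 to 38 UMIs limit both Hsp70 genes.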
